A study of Mus musculus with 18 samples.

Results

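The mouse cytochrome P450 genes were taken as all genes of the count table whose symbol is Cyp followed by a family number and a subfamily letter, which left out Cyp51. This rule found 122 of the 54232 genes, of which 99 were annotated as protein coding, 22 as pseudogenes and 1 as antisense RNA. They were measured by bulk RNA-seq of whole lacrimal glands (LGs) from 18 male mice, 1 LG per mouse, with 3 mice in each of 6 groups of strain and age. The groups were BALB/cJ (BALB/c) and NOD.B10Sn-H2b/J (NOD.H-2b) males at 2, 4 and 6 months (2M, 4M and 6M), and no mouse was treated. NOD.H-2b mice have the NOD background with the H2b haplotype of C57BL/10SnJ at the MHC, and they serve as a model of Sjögren's syndrome, in which lymphocytes infiltrate the exocrine glands. The controls are another inbred strain rather than littermates, so that disease and other differences between the strains cannot be told apart here.

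P450 enzymes carry a haem group and insert an oxygen atom into lipophilic compounds, using electrons passed on by P450 oxidoreductase in the endoplasmic reticulum or by ferredoxin in mitochondria. Members of the first families are best known for clearing foreign compounds in the liver, while others make or break down eicosanoids, bile acids, steroid hormones, vitamin D and retinoic acid. Many are expressed in epithelia outside the liver, among them airway, skin and exocrine glands.

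Each mouse had between 49480781 and 103936830 counts, and BALB/c 6M replicate 1 was the deepest. Markers of lacrimal acinar cells (Aqp5, Bhlha15, Slc12a2, Car6 and Pip, leaving out Ltf, which has also been placed in the ducts) summed to between 8774 and 17540 CPM (counts scaled to the library size) in every mouse. Of 6 hepatocyte markers, Alb, Apoa1, Apoh and Ahsg had at most 3 counts in any mouse and Serpina1a at most 19 (upregulated in NOD.H-2b at 4M), while Ttr reached 167 counts and was 2.68-fold to 3.36-fold lower in NOD.H-2b. Immune markers differed between the strains and are given beside the results below. In whole glands, fewer cells of a type and less RNA per cell cannot be told apart.

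Most P450 genes were at or near the detection limit in the LG. No count was found in any mouse for 45 of the 122 genes, another 32 reached at most 3 counts in a mouse, 10 reached 4 to 9 counts, and 35 had 10 counts or more in at least 1 mouse. Of the 59 members of families 1 to 3 classed as xenobiotic enzymes, 30 had no count and 9 could be tested between strains. This class leaves out the Cyp2j genes, Cyp2u1, Cyp2r1, Cyp2w1 and Cyp2ab1, which are counted in other classes. The liver enzymes Cyp3a11 and Cyp2c29 reached 0 and 1 counts, and Cyp1a1 and Cyp1a2, classical targets of the aryl hydrocarbon receptor, reached 3 and 1. Of the 7 steroid hormone enzymes, Cyp11a1, which starts steroid synthesis from cholesterol, reached 27 counts, Cyp17a1 4 and Cyp19a1, the aromatase, 0, and none passed the filter on low counts. Cyp7a1, the rate-limiting enzyme of bile acid synthesis, and Cyp24a1, which inactivates vitamin D, had no count. The fatty acid and eicosanoid class, a large one, had the highest number of members tested between strains, 13 of 41. In the smaller classes these were 4 of 6 oxysterol and bile acid enzymes, 2 of 3 vitamin D enzymes, 1 of 3 retinoic acid hydroxylases and 1 of 3 other members. In all, 30 members were tested in at least 1 strain comparison and 29 of them at all 3 ages. These 30 are the members with enough reads and not a sample of the family. A count of 0 covers counting error only and allows up to 3 counts in that library.

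Expression was concentrated in a few genes. To compare genes, CPM were divided by the exon length in kilobases (FPKM). Cyp4a12b, an omega-hydroxylase of fatty acids, had the highest level, with a mean of 287 FPKM over the 6 groups. It was followed by Cyp2b10, a xenobiotic enzyme induced by phenobarbital in liver (123 FPKM), and Cyp2j13, of the epoxygenase family of arachidonic acid (87.1 FPKM). Next came Cyp2f2, known for bioactivating naphthalene in airway club cells (58.9 FPKM), Cyp2a5, a coumarin hydroxylase (40.0 FPKM), and Cyp27a1, the mitochondrial sterol hydroxylase of bile acid synthesis (28.7 FPKM). Cyp20a1, an orphan P450 (9.03 FPKM), Cyp2j6 (6.46), Cyp4f13 (3.30), Cyp2b19 (3.16), Cyp4f17 (2.00) and Cyp4v3 (1.18) completed the 12 highest, and all other members were below Cyp4v3 on this scale. Cyp4a12b shares 41.3% of its 75-base windows with its neighbour Cyp4a12a, and Cyp2a5 shares 15.8% with Cyp2a4, so that the split of reads within these pairs is uncertain.

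**Figure D1:**
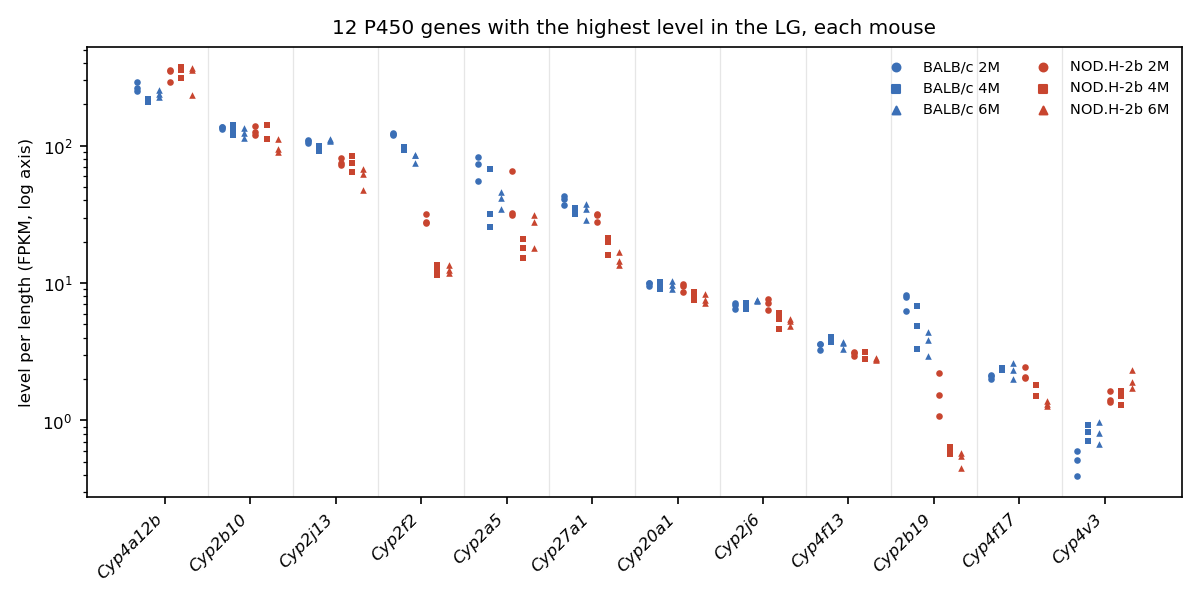
Level per length (FPKM, log axis) of the 12 P450 genes with the highest mean in the LG. Each point is a mouse, colored by strain and shaped by age, and Cyp2f2 and Cyp2b19 show the widest gap between BALB/c (blue) and NOD.H-2b (red).

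The summed level of all members and its make-up were compared between the strains. In BALB/c it was 781 ± 38.6 FPKM at 2M, 644 ± 33.7 at 4M and, in the oldest mice, 665 ± 24.7 (SD, n = 3 mice each). In NOD.H-2b it was 672 ± 41.3, 622 ± 50.1 and 563 ± 94.6 FPKM (SD, n = 3 each). The strains did not overlap at 2M or 6M and overlapped at 4M (two-sided exact permutation p = 0.1, 0.6 and 0.1 at 2M, 4M and 6M, where 0.1 is the smallest value that 3 against 3 mice can give). Cyp4a12b made up 34.4%, 33.3% and 36.1% of this sum in BALB/c at 2M, 4M and 6M, and 49.4%, 55.7% and 56.4% in NOD.H-2b. Cyp2f2 made up 15.6%, 14.8% and 12.4% in BALB/c against 4.32%, 2.04% and 2.28% in NOD.H-2b. The share of Cyp2b10 lay between 15.9% and 22.1% in all 18 mice.

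**Figure D2:**
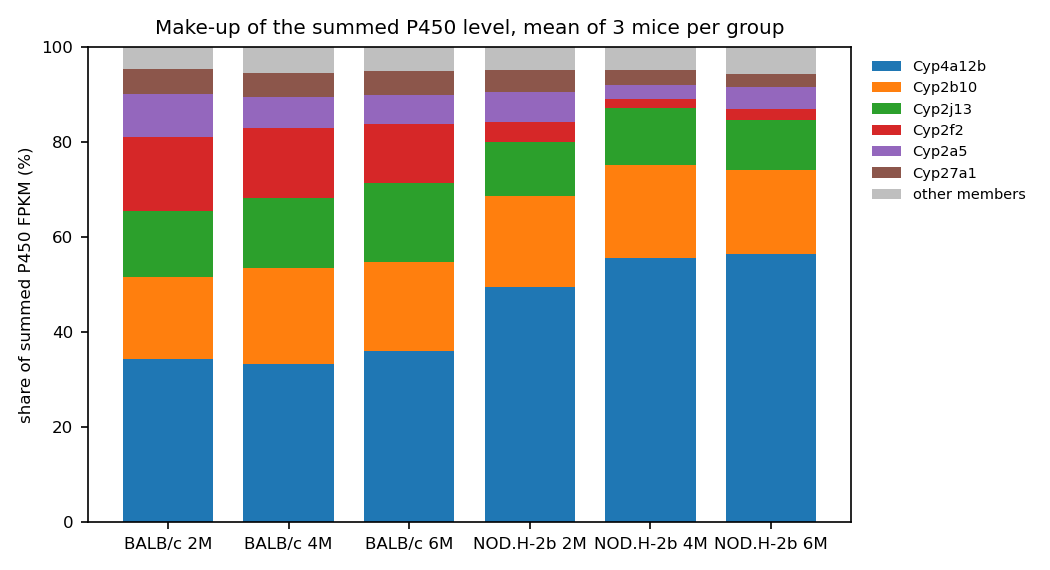
Share of the summed P450 FPKM (%) taken by the 6 highest genes and by all other members, as the mean of 3 mice in each group of strain and age. The Cyp4a12b segment rises from 34.4% in BALB/c to 49.4% in NOD.H-2b at 2M, and the Cyp2f2 segment falls from 15.6% to 4.32%.

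To compare the strains at each age, genes with a false discovery rate (FDR) under 0.05 and a change of at least 2-fold in edgeR's quasi-likelihood test were called DEGs. At 2M, 4 of 29 tested members were upregulated in NOD.H-2b (13.8%, against 12.0% of all tested genes) and 3 were downregulated (10.3%, against 3.76%). At 4M, 6 of 30 were upregulated (20.0%, against 15.6%) and 4 downregulated (13.3%, against 4.72%). At 6M, 7 of 30 were upregulated (23.3%, against 18.8%) and 5 downregulated (16.7%, against 6.03%). The upregulated shares were close to those of all genes at each age, and the downregulated shares were above them, on counts of 3 to 5 members. Some called members passed the filter on low counts only through the strain where they were high. Examples are Cyp46a1 on the downregulated side and Cyp4f18 and Cyp2r1 on the upregulated side. Such genes could be called in that direction only, so the shares include calls whose direction the filter set. All genes were filtered in the same way. The tested members had a median log2 fold change of 0.10, -0.16 and -0.24 at the successive ages, against 0.01, 0.00 and 0.00 over all genes tested. Without BALB/c 2M replicate 3, the upregulated members at 2M numbered 7, and without BALB/c 4M replicate 3 the downregulated members at 4M numbered 7.

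**Figure D3:**
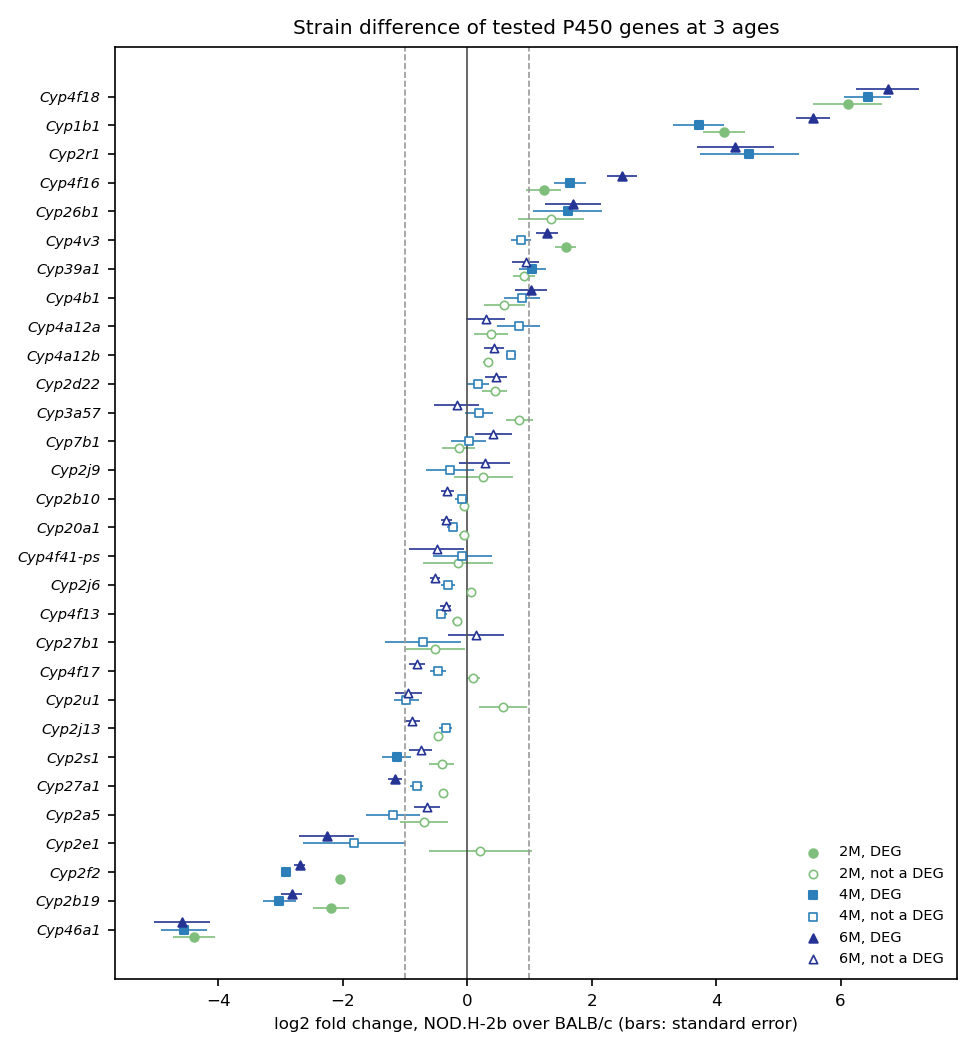
Log2 fold change of NOD.H-2b over BALB/c (x axis, bars show the standard error) at 2M, 4M and 6M for the 30 tested P450 genes, ordered by their mean. Filled symbols are DEGs, dashed lines mark a 2-fold change, and Cyp4f18, Cyp1b1 and Cyp2r1 lie at the upper end and Cyp46a1, Cyp2b19 and Cyp2f2 at the lower end.

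Cyp1b1, Cyp4f16 and Cyp4f18 were upregulated at all 3 ages, and Cyp2b19, Cyp2f2 and Cyp46a1 were downregulated at all 3 ages. Of the genes tested at every age, 9.44% were upregulated and 2.39% downregulated throughout. The 250 bases before the RefSeq start of these genes were read from RefSeq's promoter table of GRCm38.p6, in which all 6 were found. The RefSeq start lay 65 bases upstream of the nearest GENCODE M21 start for Cyp46a1 and at most 6 bases from one for the others. The windows were searched on both strands for the core of the aryl hydrocarbon receptor element (GCGTG, in 28.2% of all 32851 promoter windows), the PU.1 box of myeloid and B cell genes (GAGGAA, 23.3%), the interferon-responsive GAS element (TTCNNNGAA, 7.02%) and the TATA box (TATAAA, 12.4%). The 5 windows with a match are given 5′ to 3′ on the strand of the gene, with matches in capitals, to show what precedes the genes whose strain difference was found at every age.
Cyp1b1 (chr17:79715062-79715311, minus strand): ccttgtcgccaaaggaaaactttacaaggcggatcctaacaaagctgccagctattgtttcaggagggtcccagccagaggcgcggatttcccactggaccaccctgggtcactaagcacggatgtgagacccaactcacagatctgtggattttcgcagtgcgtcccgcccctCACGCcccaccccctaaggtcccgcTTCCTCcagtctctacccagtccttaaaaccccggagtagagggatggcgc
Cyp4f16 (chr17:32536307-32536556, plus strand): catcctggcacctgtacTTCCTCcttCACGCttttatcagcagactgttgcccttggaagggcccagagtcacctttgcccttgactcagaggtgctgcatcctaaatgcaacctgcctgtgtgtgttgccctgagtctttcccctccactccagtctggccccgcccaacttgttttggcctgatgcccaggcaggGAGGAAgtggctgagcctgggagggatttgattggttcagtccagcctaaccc
Cyp4f18 (chr8:72009627-72009876, minus strand): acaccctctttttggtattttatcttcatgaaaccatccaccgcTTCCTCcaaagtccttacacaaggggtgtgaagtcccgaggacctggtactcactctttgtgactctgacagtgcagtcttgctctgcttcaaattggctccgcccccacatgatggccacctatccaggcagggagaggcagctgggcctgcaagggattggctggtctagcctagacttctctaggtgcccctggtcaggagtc
Cyp2b19 (chr7:26756892-26757141, plus strand): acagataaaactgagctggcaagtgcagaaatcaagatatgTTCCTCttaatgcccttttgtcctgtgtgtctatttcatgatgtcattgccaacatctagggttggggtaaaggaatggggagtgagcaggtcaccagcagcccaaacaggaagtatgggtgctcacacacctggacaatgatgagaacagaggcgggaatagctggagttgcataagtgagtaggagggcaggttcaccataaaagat
Cyp46a1 (chr12:108334066-108334315, plus strand): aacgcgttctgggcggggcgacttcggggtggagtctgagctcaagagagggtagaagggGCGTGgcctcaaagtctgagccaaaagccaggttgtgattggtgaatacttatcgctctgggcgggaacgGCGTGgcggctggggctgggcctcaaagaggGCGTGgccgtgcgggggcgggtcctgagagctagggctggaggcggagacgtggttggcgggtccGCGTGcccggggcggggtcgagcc
The Cyp1b1 and Cyp4f16 windows each held 1 receptor core, and the Cyp46a1 window held 4. PU.1 boxes were found once in the windows of Cyp1b1, Cyp4f18 and Cyp2b19 and at 2 places in that of Cyp4f16. No GAS element or TATA box was found in any of the 6 windows, the window of Cyp2f2 held none of these motifs, and no matches overlapped. Receptor cores thus lay before the upregulated Cyp1b1 and Cyp4f16 and the downregulated Cyp46a1. PU.1 boxes lay before the upregulated Cyp1b1, Cyp4f16 and Cyp4f18 and the downregulated Cyp2b19. With 6 windows the directions were not compared, and binding was not measured.

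Among the fatty acid and eicosanoid enzymes, 3 of 13 tested members were upregulated at 2M, 2 at 4M and 4 at 6M, and 0 were downregulated, where 12.0%, 15.6% and 18.8% of all tested genes were upregulated and 3.76%, 4.72% and 6.03% downregulated. With 13 members these counts do not set the class apart from all genes. The median log2 fold change of the 13 was 0.34, -0.08 and 0.28. Cyp4f18 (ENSMUSG00000003484), a hydroxylase that inactivates leukotriene B4 in leukocytes, was nearly absent from BALB/c. The BALB/c mice had 1, 1 and 1 counts at 2M, 2, 1 and 6 at 4M, and 10, 1 and 0 at 6M. The NOD.H-2b mice had 47, 97 and 117 counts at 2M, 382, 267 and 207 at 4M, and 624, 260 and 358 at 6M. The groups did not overlap at any age. At 2M the ratio of the summed counts was 76.3 (95% interval 25.8 to 372, counting error only). The log2 fold change was 6.44 ± 0.37 at 4M (SE, FDR = 2.21e-06) and 6.75 ± 0.50 at 6M (FDR = 7.99e-06), and it was 7.23 without BALB/c 4M replicate 3 and 8.92 without BALB/c 6M replicate 1. Cyp4f18 overlaps exons of Zfp961 on the opposite strand, and the strand setting of the counting is not given in the sources used here.

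Cyp4f16 (ENSMUSG00000048440), another member of the 4F family, was also expressed in BALB/c. Its levels there were 0.438, 0.607 and 0.719 CPM at 2M, 0.875, 0.688 and 0.868 at 4M, and 0.493, 0.605 and 0.458 at 6M. In NOD.H-2b they were 1.02, 1.48 and 1.57 CPM at 2M, 3.34, 2.20 and 2.04 at 4M, and 3.46, 2.41 and 2.80 at 6M. Every NOD.H-2b mouse was above every BALB/c mouse. The fold change was 2.34 at 2M (FDR = 0.00541), 3.14 at 4M (FDR = 7.25e-04) and 5.61 at 6M (FDR = 1.56e-05). Of its 75-base windows, 9.35% are shared with Cyp4f37.

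Cyp4v3, a fatty acid hydroxylase whose human counterpart is mutated in a crystalline retinal dystrophy, had 1.90 ± 0.391, 3.12 ± 0.422 and 3.11 ± 0.565 CPM in BALB/c at 2M, 4M and 6M, and 5.60 ± 0.545, 5.63 ± 0.682 and 7.56 ± 1.23 CPM in NOD.H-2b (SD, n = 3 each). Its groups did not overlap at any age, and the change was 3.00-fold at 2M, 1.82-fold at 4M and 2.44-fold at 6M (FDR = 2.36e-05, 0.00211 and 1.79e-04), so that it was not a DEG at 4M. Cyp4b1, which hydroxylates fatty acids and activates furans, was a DEG at 6M only. Its levels at 6M were 0.772, 0.480 and 0.687 CPM in BALB/c and 1.29, 1.28 and 1.39 in NOD.H-2b, a change of 2.03-fold (FDR = 0.00708). This call lay at the 2-fold line and was lost when BALB/c 6M replicate 2 (log2 fold change 0.85) or NOD.H-2b 6M replicate 3 (0.99) was left out, with all 18 mice in 1 fit (0.986) and with upper quartile scaling (0.983). A call was gained at 2M without BALB/c 2M replicate 2 (1.07), and at 4M without BALB/c 4M replicate 3 (1.12) or NOD.H-2b 4M replicate 1 (1.007).

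Cyp4a12b differed by less than 2-fold. The NOD.H-2b mice had 833, 703 and 856 CPM at 2M, 744, 891 and 856 at 4M, and 558, 856 and 888 at 6M. The BALB/c mice had 631, 699 and 599 CPM at 2M, 509, 526 and 503 at 4M, and 607, 542 and 574 at 6M. NOD.H-2b was higher without overlap at 2M and 4M, and 1 of 3 NOD.H-2b mice fell within the BALB/c range at 6M (log2 fold change 0.34, 0.71 and 0.42, FDR = 0.0115, 1.49e-04 and 0.0495). Cyp2j13 went the other way, from 506 ± 15.3, 446 ± 19.6 and 516 ± 9.37 CPM in BALB/c to 358 ± 24.0, 348 ± 46.5 and 278 ± 46.8 CPM in NOD.H-2b (SD, n = 3 each). Its groups did not overlap, and its log2 fold change was -0.48, -0.35 and -0.89 (FDR = 3.97e-05, 0.0171 and 2.00e-04). Cyp2j6, Cyp4f13 and Cyp4f17 had log2 fold changes between -0.17 and 0.10 at 2M (FDR = 0.0885 to 0.587) and between -0.81 and -0.35 at 6M (FDR = 2.88e-04 to 0.00751).

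In the xenobiotic class of families 1 to 3, 1 of 9 tested members was upregulated at each age (against 12.0%, 15.6% and 18.8% of all tested genes). In this class, 2, 3 and 3 were downregulated at 2M, 4M and 6M (against 3.76%, 4.72% and 6.03%). Cyp1b1 (ENSMUSG00000024087), a target of the aryl hydrocarbon receptor that oxidizes estrogens and polycyclic hydrocarbons, was the upregulated one. The BALB/c mice had 6, 11 and 5 counts at 2M, 14, 13 and 34 at 4M, and 10, 6 and 9 at 6M. The NOD.H-2b mice had 111, 186 and 141 counts at 2M, 442, 278 and 141 at 4M, and 608, 331 and 331 at 6M. No groups overlapped, and the change was 17.4-fold at 2M, 13.2-fold at 4M and 47.2-fold at 6M (FDR = 3.23e-06, 1.69e-04 and 3.34e-07).

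Cyp2f2 (ENSMUSG00000052974) had the largest strain difference at each age among the 6 members with the highest FPKM. The BALB/c mice had 243, 253 and 246 CPM at 2M, 198, 189 and 190.3 at 4M, and 174, 153 and 173 at 6M. The NOD.H-2b mice had 55.8, 56.7 and 64.1 CPM at 2M, 27.7, 25.7 and 23.0 at 4M, and 25.1, 24.0 and 27.7 at 6M. The lowest BALB/c mouse was above the highest NOD.H-2b mouse at every age, and the change was 4.12-fold, 7.51-fold and 6.48-fold (FDR = 9.64e-10, 1.96e-08 and 3.76e-08). Cyp2b19 (ENSMUSG00000066704), an arachidonic acid epoxygenase known from skin keratinocytes, had a similar fold but a wider spread. It had 34.3, 33.3 and 25.9 CPM in BALB/c at 2M, 28.3, 13.9 and 20.5 at 4M, and 18.2, 12.2 and 16.0 at 6M. In NOD.H-2b it had 4.51, 6.40 and 9.17 CPM at 2M, 2.37, 2.67 and 2.64 at 4M, and 1.88, 2.29 and 2.40 at 6M. Again no groups overlapped, and the change was 4.57-fold, 8.10-fold and 7.08-fold (FDR = 0.00305, 1.25e-04 and 8.19e-07). Cyp2f2 overlaps Gm15883 on the opposite strand.

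Of the other members of this class, Cyp2s1, an epithelial P450, was a DEG at 4M only. It had 2.66 ± 0.240 CPM in BALB/c against 1.20 ± 0.287 in NOD.H-2b (SD, n = 3 each, 2.19-fold, FDR = 0.00291). Its log2 fold change was -0.97 without NOD.H-2b 4M replicate 3. Cyp2e1, the ethanol-inducible P450, varied widely between mice of a group, with 60, 4 and 73 counts in NOD.H-2b at 2M and 72, 40 and 14 in BALB/c at 4M. At 4M the NOD.H-2b mice had 29, 5 and 6 counts, which overlapped with BALB/c (3.53-fold lower, FDR = 0.115). The gene was past the threshold at 4M with DESeq2's Wald test (log2 fold change -1.85), with the replicate block (-1.91), without BALB/c 4M replicate 3 (-2.30) and without NOD.H-2b 4M replicate 1 (-2.97). It was downregulated at 6M, with 180, 47 and 34 counts in BALB/c against 12, 21 and 15 in NOD.H-2b (4.79-fold, FDR = 0.00169). Cyp2a5 also varied within groups. Its levels were 115, 172 and 154 CPM in BALB/c at 2M, 141, 66.5 and 52.9 at 4M, and 71.6, 95.2 and 86.0 at 6M, against 65.3, 67.0 and 135, then 43.6, 31.8 and 37.2, then 57.8, 37.6 and 64.7 CPM in NOD.H-2b. Its log2 fold change was -0.69, -1.20 and -0.65 (FDR = 0.244, 0.0896 and 0.0337), and it was not a DEG. This depended on the test at 4M, where it was called with DESeq2's Wald test (-1.19), with all 18 mice in 1 fit (-1.20) and without BALB/c 4M replicate 3 (-1.46), and at 2M it was called without NOD.H-2b 2M replicate 3 (-1.14). Cyp2b10 ranged from 190.2 to 298.8 CPM over all 18 mice, with a log2 fold change of -0.05 and -0.09 at 2M and 4M (FDR = 0.501 and 0.553) and -0.32 at 6M (FDR = 0.0246).

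**Figure D4:**
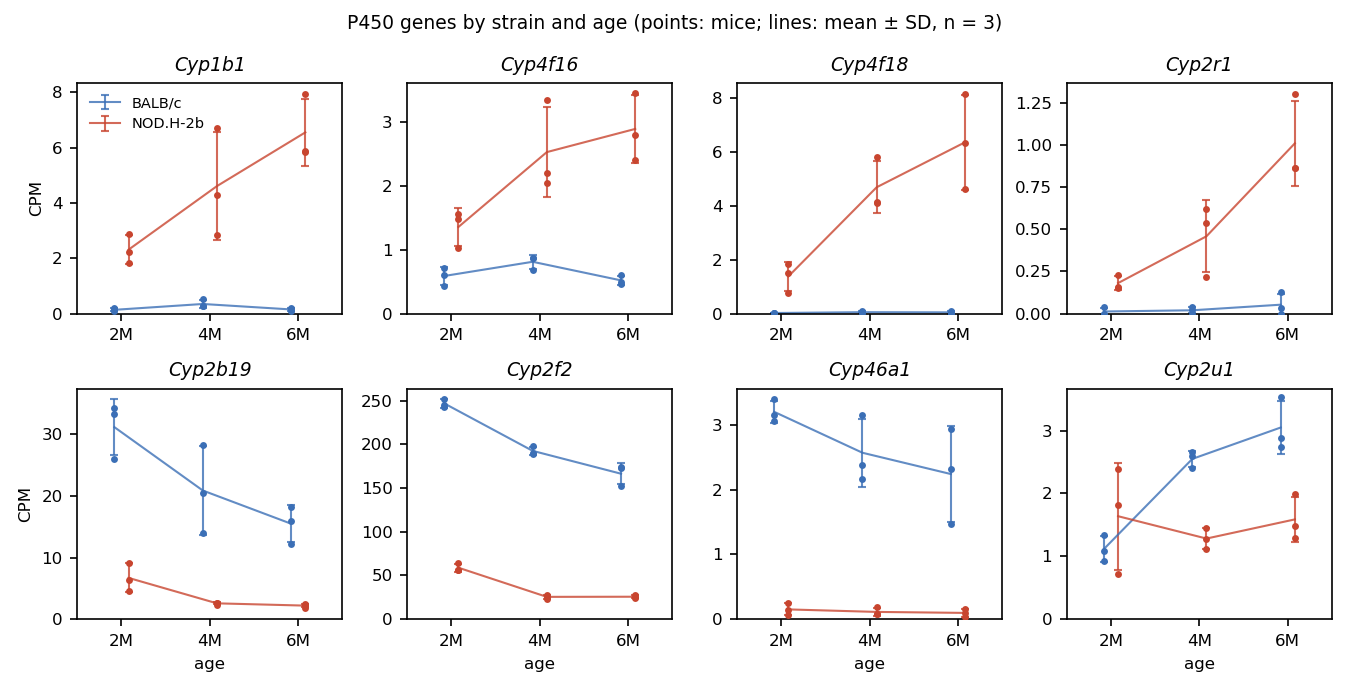
CPM at each age for the 6 members that were DEGs at all 3 ages and for Cyp2r1 and Cyp2u1 (linear axes from 0, points show mice, lines and bars the mean ± SD of 3 mice). NOD.H-2b (red) lies above BALB/c (blue) in Cyp1b1, Cyp4f16, Cyp4f18 and Cyp2r1 and below it in Cyp2b19, Cyp2f2 and Cyp46a1, while Cyp2u1 rises with age in BALB/c.

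Of the 4 tested enzymes of oxysterols and bile acids, 1 was downregulated at 2M, 1 was upregulated and 1 downregulated at 4M, and 2 were downregulated at 6M, beside the shares of all genes given above, with which counts this small cannot be compared. Cyp46a1 (ENSMUSG00000021259), the cholesterol hydroxylase best known from neurons, had 161, 177 and 194 counts in BALB/c at 2M, 170, 118 and 145 at 4M, and 217, 141 and 64 at 6M. In NOD.H-2b it had 15, 9 and 4 counts at 2M, 5, 5 and 9 at 4M, and 3, 5 and 9 at 6M. The groups did not overlap, and the change was 20.9-fold, 23.5-fold and 24.1-fold (FDR = 1.89e-06, 1.47e-05 and 1.94e-05). Cyp27a1 had 80.8, 89.2 and 93.4 CPM in BALB/c at 2M, 76.3, 69.1 and 74.1 at 4M, and 81.4, 75.8 and 62.8 at 6M. In NOD.H-2b it had 68.4, 68.9 and 60.9 CPM at 2M, 34.7, 46.3 and 43.0 at 4M, and 29.6, 36.5 and 31.6 at 6M. The groups did not overlap at any age, and the difference reached 2-fold at 6M only (1.31-fold, 1.76-fold and 2.25-fold, FDR = 6.23e-04, 1.99e-04 and 1.90e-05). Cyp39a1, which acts on hydroxylated cholesterol from the Cyp46a1 reaction, was higher in every NOD.H-2b mouse at each age, with changes of 1.89-fold, 2.07-fold and 1.92-fold (FDR = 0.00199, 0.00376 and 0.00437). It was a DEG at 4M only, and this call was lost when BALB/c 4M replicate 2 (log2 fold change 0.995), BALB/c 4M replicate 3 (0.97), NOD.H-2b 4M replicate 1 (0.96) or NOD.H-2b 4M replicate 2 (0.94) was left out. It was gained at 2M without BALB/c 2M replicate 3 (1.013) or NOD.H-2b 2M replicate 1 (1.012) and at 6M without BALB/c 6M replicate 1 (1.02) or NOD.H-2b 6M replicate 1 (1.11).

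Cyp2r1, the vitamin D hydroxylase of the first activation step, was close to absent from BALB/c. It had 0, 2 and 0 counts in BALB/c at 2M, 2, 1 and 0 at 4M, and 3, 6 and 0 at 6M. In NOD.H-2b it had 14, 10 and 10 counts at 2M, 41, 14 and 27 at 4M, and 100, 49 and 49 at 6M. No groups overlapped. It was below the filter on low counts at 2M, where the ratio of summed counts was 14.9 (95% interval 3.82 to 128, counting error only). At 4M this ratio was 25.7 (8.49 to 127) and the gene was a DEG (FDR = 0.00128), and at 6M the change was 19.8-fold (log2 fold change 4.31 ± 0.62 SE, FDR = 2.43e-04, and 5.46 without BALB/c 6M replicate 2). At 4M the log2 fold change of 4.54 was 5.41 without BALB/c 4M replicate 1 and 3.88 without BALB/c 4M replicate 3. Among the retinoic acid hydroxylases, Cyp26b1 was a DEG at 4M and 6M. It had 4, 6 and 7 counts in BALB/c at 4M against 11, 32 and 13 in NOD.H-2b (3.06-fold, FDR = 0.0390), and 16, 13 and 6 counts in BALB/c at 6M against 73, 23 and 28 in NOD.H-2b (3.26-fold, FDR = 0.00950). The call at 4M was lost when BALB/c replicate 1, 2 or 3 or NOD.H-2b replicate 2 or 3 of that age was left out, with log2 fold changes of 1.43, 1.75, 1.65, 1.07 and 1.71. The call at 6M was lost without NOD.H-2b 6M replicate 1 (1.24).

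Markers of several other cell types also differed between the strains, and whether they moved with the members named above was not tested. At 2M, all 6 T cell markers and all 6 macrophage markers were upregulated in NOD.H-2b, as were the 2 of 5 B cell markers that could be tested, and at 6M all markers of the 3 lists were. At 4M all of them but Csf1r were upregulated. From 2M to 6M within NOD.H-2b, all 6 T cell and all 5 B cell markers rose, and 0 of 6 macrophage markers were called. The summed B cell markers (Ms4a1, Cd79a, Cd79b, Pax5 and Cr2) lay between 0.0351 and 1.71 CPM in BALB/c mice, whereas NOD.H-2b mice had 0.693 to 19.9 CPM at 2M, 93.7 to 208 at 4M and 151 to 295 at 6M. The summed macrophage markers (Adgre1, Csf1r, C1qa, C1qb, C1qc and Cd68) lay between 31.1 and 77.2 CPM in BALB/c, and between 118 and 136 at 2M, 159 and 180 at 4M, and 161 and 223 at 6M in NOD.H-2b. Of 4 plasma cell markers, 1, 3 and 2 were upregulated at 2M, 4M and 6M. Duct markers differed as well, while no tested myoepithelial, fibroblast or adipocyte marker was a DEG between the strains at any age. Among endothelial markers, Pecam1 alone was called, upregulated at 4M and 6M. Of 6 duct markers, 4 (Krt19, Cldn4, Wfdc2 and Kit) were upregulated at 2M and 6M and 1 (Cldn4) at 4M, and 0 were downregulated at any of these ages. At 2M the summed duct markers were 41.9 to 49.6 CPM in BALB/c against 68.2 to 76.8 in NOD.H-2b, at 6M they were 48.7 to 51.5 against 52.8 to 56.5, and at 4M the strains overlapped. The summed acinar markers (without Ltf) lay between 13870 and 17540 CPM in BALB/c, whereas NOD.H-2b had 14590 to 15610 CPM at 2M and 8774 to 11490 CPM in the older mice. At 2M the acinar sums were 16050 to 16790 CPM in BALB/c, and Cyp2f2, Cyp2b19 and Cyp46a1 were 4.12-fold to 20.9-fold lower in NOD.H-2b. Car6 was the 1 acinar DEG, downregulated at 2M, 4M and 6M alike. The part of these cell types in the P450 differences was not tested.

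With age, BALB/c changed little. From 2M to 6M, 1 of 26 tested members was upregulated (3.85%, against 1.57% of all genes) and 0 were downregulated by edgeR (against 0.115%), with 6 lower members at an unadjusted p under 0.05 and 2 at an FDR under 0.05, and 1 downregulated member with DESeq2. The upregulated member was Cyp2u1 (ENSMUSG00000027983), a hydroxylase of arachidonic acid. It rose from 1.09, 0.929 and 1.33 CPM at 2M through 2.59, 2.65 and 2.41 at 4M to 3.53, 2.73 and 2.89 at 6M (2.75-fold from 2M to 6M, FDR = 0.00152), with no overlap between 2M and 6M. The 2 members past the FDR were Cyp2f2 (1.48-fold, FDR = 1.43e-04) and Cyp2b19, which lay just short of the 2-fold line (log2 fold change -0.996, FDR = 0.0191) and passed it without BALB/c 2M replicate 3 or without BALB/c 6M replicate 1.

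In NOD.H-2b, 5 of 31 tested members rose from 2M to 6M (16.1%, against 10.9% of all genes) and 3 fell (9.68%, against 1.55%). These comparisons share the 2M and 6M mice with the strain comparisons above. Those that rose were Cyp1b1 (2.81-fold, FDR = 0.00111), Cyp4f18 (4.57-fold, FDR = 0.00408), Cyp2r1 (5.53-fold, FDR = 0.00123), Cyp4f16 (2.11-fold, FDR = 0.00622) and Cyp26c1, a retinoic acid hydroxylase with 6, 4 and 3 counts at 2M and 11, 15 and 12 at 6M (2.88-fold, FDR = 0.0440). Cyp26c1 was not called when any of the 6 mice was left out, with log2 fold changes from 1.31 to 1.85, nor with DESeq2. Cyp4f16 was lost without NOD.H-2b 2M replicate 1 (0.92) or NOD.H-2b 6M replicate 1 (0.93), and the number of members that rose was then 3. Those that fell were Cyp2b19 (3.11-fold, FDR = 0.00305), Cyp2f2 (2.33-fold, FDR = 2.14e-04) and Cyp27a1 (2.05-fold, FDR = 3.87e-04), and the call of Cyp27a1 was lost without NOD.H-2b 2M replicate 2 (-0.99) or NOD.H-2b 6M replicate 1 (-0.98). Cyp2f2 and Cyp2b19 had reached their 6M level by 4M in NOD.H-2b, with means of 25.4 and 25.6 CPM for Cyp2f2 and 2.56 and 2.19 CPM for Cyp2b19 at 4M and 6M.

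The change with age differed between the strains by at least 2-fold for 2 of 33 tested members, and for 6 at an FDR under 0.05 without the fold threshold, as tested by the interaction of strain and age in 1 fit of 18 mice. Cyp4f16 rose more in NOD.H-2b, by 1.27 ± 0.37 on the log2 scale (SE, FDR = 0.0258), where 3.60% of all genes were called in this direction. Cyp2u1 rose less, by -1.51 ± 0.42 (FDR = 0.0214), where 1.50% of all genes were called. In NOD.H-2b, Cyp2u1 had 1.82, 2.39 and 0.712 CPM at 2M, 1.28, 1.45 and 1.12 at 4M, and 1.29, 1.99 and 1.48 at 6M, so that its 2M and 6M mice overlapped (log2 fold change -0.06, FDR = 0.911). Neither interaction was called without NOD.H-2b 2M replicate 1 or without NOD.H-2b 6M replicate 1. Cyp2u1 was also lost without NOD.H-2b 2M replicate 2 (-1.14), and Cyp4f16 without BALB/c 2M replicate 2 or 3 or BALB/c 6M replicate 1 or 3 (1.05 to 1.20). Cyp2u1 overlaps exons of 4930534D22Rik on the opposite strand.

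Many P450 genes lie in tandem clusters. Differences between neighbours were not tested, and their values are set side by side. On chromosome 7, Cyp2s1, Cyp2b10, Cyp2a4, Cyp2b19, Cyp2a5 and Cyp2f2 follow each other among the members with 10 counts or more. Cyp2b19 and Cyp2f2 were downregulated at all ages, while Cyp2a5, which lies between them and 62.7 kb from Cyp2b19, was lower in NOD.H-2b by 2.29-fold at 4M without overlap but was called only under the alternatives given above, and Cyp2b10 was not a DEG at any age. On chromosome 17, Cyp4f16 lies 6.4 kb from Cyp4f17. Cyp4f16 was upregulated at all ages, whereas Cyp4f17 had a log2 fold change of 0.10, -0.47 and -0.81 (FDR = 0.494, 0.0137 and 6.03e-04). Cyp4f17 fell from 6.98 ± 0.704 CPM at 2M to 4.24 ± 0.192 at 6M in NOD.H-2b and had 6.64 ± 0.208 and 7.44 ± 0.984 CPM in BALB/c (SD, n = 3 each). Cyp4f13, in the same cluster, had log2 fold changes of -0.17, -0.42 and -0.35 (FDR = 0.0885, 0.00407 and 0.00751).

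**Figure D5:**
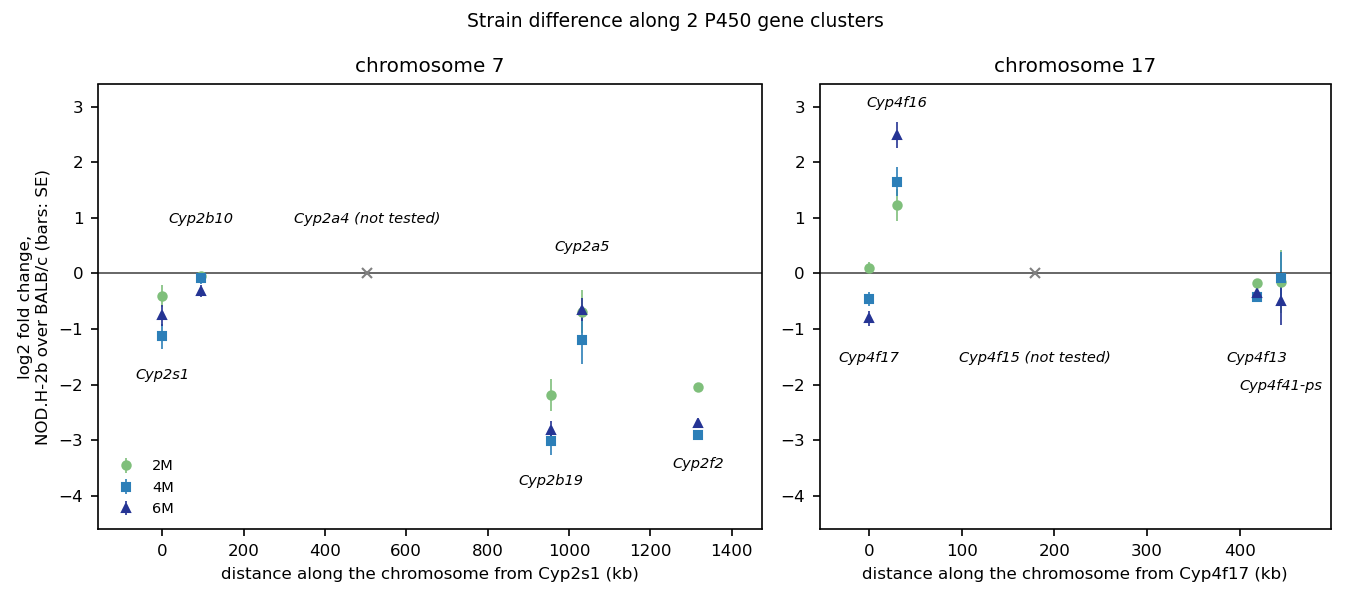
Log2 fold change of NOD.H-2b over BALB/c (y axis, bars show the standard error) at 2M, 4M and 6M against the distance along the chromosome (kb) in the chromosome 7 and chromosome 17 clusters. Crosses mark members below the filter on low counts, and Cyp4f16 at 30.5 kb lies above 0 while its neighbour Cyp4f17 lies at or below 0.10.

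The partners on which P450 enzymes depend were compared next. Of all tested genes, 12.0%, 15.6% and 18.8% were upregulated and 3.76%, 4.72% and 6.03% downregulated at 2M, 4M and 6M. Of 10 tested electron donors, 0 were DEGs at any age by edgeR or by DESeq2, though 5, 6 and 6 were lower and 1, 1 and 2 higher at an unadjusted p under 0.05 in edgeR, with median log2 fold changes of -0.16, -0.29 and -0.35. Por, the oxidoreductase of microsomal P450s, had log2 fold changes of -0.06, -0.58 and -0.36 (FDR = 0.700, 6.88e-04 and 0.00449), and the ferredoxin Fdx1 of mitochondrial P450s -0.61, -0.60 and -0.63 (FDR = 2.2e-05, 0.00576 and 2.43e-04). Of 13 genes of haem synthesis and breakdown, Alad, the second enzyme of haem synthesis, was the 1 DEG, downregulated at all 3 ages, with 28.1 ± 1.50 CPM in BALB/c against 13.2 ± 1.20 in the NOD.H-2b mice at 2M (SD, n = 3 each, log2 fold change -1.07, FDR = 1.57e-06). Of the xenobiotic receptors, Nr1i2 (PXR) had 0 counts and Nr1i3 (CAR) at most 3 in any mouse. Among 14 to 15 tested regulators, 1, 3 and 4 were upregulated and 0, 1 and 0 downregulated at 2M, 4M and 6M. The largest upward change was that of Ahrr, the repressor of the aryl hydrocarbon receptor and itself a target of it (log2 fold change 3.44 and 2.34 at 4M and 6M, FDR = 0.00246 and 0.00597), and the downregulated gene was Nr5a2 at 4M (-1.31, FDR = 0.0187). Ahrr was near the detection limit in BALB/c, with means of 0.0274 and 0.0710 CPM at 4M and 6M against 0.332 and 0.379 in NOD.H-2b. It was not tested at 2M. The receptor gene Ahr had log2 fold changes of 0.34, 0.38 and 0.24 (FDR = 0.0104, 0.0318 and 0.0708).

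Among the enzymes that act beside the P450s, 28 of 36 conjugation and detoxification genes were tested, of which 3, 2 and 2 were upregulated and 3, 6 and 4 downregulated at 2M, 4M and 6M. For these and the lists that follow, 12.0%, 15.6% and 18.8% of all tested genes were upregulated and 3.76%, 4.72% and 6.03% downregulated. The glutathione transferase Gsta2 was 9.35-fold lower in the 2M NOD.H-2b mice (log2 fold change -3.23, FDR = 1.61e-04), 2.89-fold at 4M (FDR = 0.0488) and 2.01-fold at 6M, where it was not called (FDR = 0.118), and the microsomal glutathione transferase Mgst2 was higher (2.91, FDR = 0.00823 at 2M). Of the eicosanoid genes, 2 of 12, 3 of 13 and 3 of 14 were upregulated and 1 downregulated at each age. The lipoxygenase Alox15 (log2 fold change 2.24 and 4.54 at 4M and 6M, FDR = 0.00515 and 2.74e-05) and the prostaglandin D synthase Ptgds (-2.38 at 2M, FDR = 0.00120) showed the largest changes. Of the retinoid genes, 1 of 9, 3 of 10 and 4 of 10 were upregulated and 2, 2 and 1 downregulated, among them the retinol transporter Stra6 (3.57 at 6M, FDR = 4.11e-05) and the retinol acyltransferase Lrat (-1.65 at 6M, FDR = 4.57e-04). Of 17 tested steroid genes, 2 were upregulated at each age and 1, 1 and 2 downregulated, with Hsd17b7 (3.53 at 6M, FDR = 1.61e-04) and Akr1c14 (-2.47 at 6M, FDR = 9.29e-05) showing the largest changes. In BALB/c, Mgst2, Alox15 and Stra6 were near the detection limit, with group means of at most 0.0652, 0.133 and 0.0884 CPM. Their fold changes thus rest on few counts in that strain.

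P450 genes outside the naming rule were compared as well. Tbxas1, the thromboxane synthase of platelets and macrophages, was upregulated at all ages, with 8, 18 and 18 counts in BALB/c against 95, 141 and 121 in NOD.H-2b at 2M (7.20-fold, 3.10-fold and 5.62-fold at 2M, 4M and 6M, FDR = 3.12e-05, 0.00341 and 4.31e-05). Ptgis, the prostacyclin synthase, was downregulated at 4M only, with 11, 18 and 21 counts against 8, 6 and 2 (3.29-fold, FDR = 0.0235), and lost this call when BALB/c replicate 2 or 3 or NOD.H-2b replicate 2 or 3 of that age was left out (log2 fold change -1.77 to -1.43). Cyp51, the sterol demethylase of cholesterol synthesis, was higher in NOD.H-2b by less than 2-fold, with log2 fold changes of 0.71, 0.80 and 0.22 (FDR = 2.28e-04, 0.00121 and 0.117).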

How the data were processed

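LGs of 18 male mice, kept in RNAlater, gave ribosomal RNA-depleted libraries sequenced as paired reads. Per the labels and the methods of the study, the authors processed the reads with cutadapt, STAR (GRCm38) and HTSeq and deposited raw counts per Ensembl gene. The annotation release and strand setting are not given in the sources used here. The other deposited table, the authors' log2 of normalized counts, was not used. Gene models and exon lengths came from GENCODE M21, so FPKM here are TMM-scaled CPM per kilobase of exon.

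The members, roles, gene lists and motifs were chosen with earlier results of these data known. Strains at each age and 2M against 6M within a strain were compared on 6 mice, and strain by age on all 18 mice, with edgeR 4.0.16 in R 4.3.3 (TMM, filterByExpr, robust quasi-likelihood test, Benjamini-Hochberg adjustment over all tested genes). Genes past 2-fold with an FDR under 0.05 were called DEGs. Standard errors came from the fold change and the F statistic. Genes named are the 12 members with the highest FPKM, those called at all ages, the 3 largest changes each way per comparison, members with at most 3 counts in every mouse of a strain, and 1 partner gene each way per list. Of the gene lists, 2 genes are not reported here and were left out of every list count and sum. The other called members (Cyp26b1, Cyp2e1, Cyp2s1, Cyp39a1 and Cyp4b1), and members named for low or absent counts, were named after their values were seen. The partner genes Por, Fdx1, Ahr, Nr1i2 and Nr1i3 were named outside the rule.

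Counts per mouse ranged from 49480781 to 103936830. Replicate libraries differed by more than counting error (chi-square per gene 16.37 to 83.36), so precision is set by the 3 mice. Alternatives were DESeq2 size factors, the upper quartile, no filter, at least 10 counts in every sample, DESeq2 1.42.0's Wald test, the replicate block, 1 fit of more mice, no fold threshold, and leaving out each mouse.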

Additional observations from a re-analysis of the deposited data

Results flagged for a closer look

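For 7 P450 genes the change from 2M to 6M differed between the strains at an FDR under 0.05 in edgeR's interaction test. The differences, NOD.H-2b minus BALB/c on the log2 scale, were -0.774 for Cyp27a1 (FDR = 0.00372), -0.643 for Cyp2f2 (FDR = 0.00141), -0.567 for Cyp2j6 (FDR = 0.00685), -1.514 for Cyp2u1 (FDR = 0.0214), 1.272 for Cyp4f16 (FDR = 0.0258), -0.897 for Cyp4f17 (FDR = 0.00220) and -0.48 for Cyp51 (FDR = 0.0374). Cyp2u1 and Cyp4f16 exceeded 2-fold. Cyp27a1, Cyp2j6 and Cyp4f17 fell in NOD.H-2b (log2 fold change -1.04, -0.44 and -0.73, FDR = 3.87e-04, 0.00443 and 0.00202) and had -0.25, 0.13 and 0.18 in BALB/c (FDR = 0.152, 0.234 and 0.401). Cyp2f2 fell in both strains, by 1.22 on the log2 scale in NOD.H-2b and by 0.56 in BALB/c. The acinar marker sum (without Ltf) was also lower in NOD.H-2b at 6M than at 2M (9088 to 11490 against 14590 to 15610 CPM), and its part in these differences was not tested.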

How the results depend on the processing

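Of 166 counts of called members under alternatives, 141 stayed within 1.5 times the main count. Requiring at least 10 counts in every sample left 2, 3 and 3 upregulated members at 2M, 4M and 6M, in place of 4, 6 and 7, since Cyp1b1, Cyp4f18, Cyp2r1 or Cyp26b1 fall below such a filter. Cyp46a1, downregulated at every age in the main analysis, also falls below it at 2M, 4M and 6M. Without the fold threshold there were 7 upregulated members at 2M, 5, 10 and 14 downregulated ones at 2M, 4M and 6M, 2 members that fell in BALB/c, 8 that fell in NOD.H-2b, and 6 interactions. Members that fell in BALB/c numbered 1 with no filter, with DESeq2's Wald test and with the replicate block. Leaving out 1 mouse gave 4 to 7 upregulated members at 2M, 3 to 7 downregulated at 4M, 1 to 2 that rose and 0 to 1 that fell in BALB/c, 3 to 5 that rose in NOD.H-2b, and 0 to 3 interactions. Mice with the same replicate number are not paired by the labels, and their deviations correlated between -0.332 and 0.16. The replicate block left 4 rising members in NOD.H-2b, 5 upregulated at 4M and 5 downregulated at 4M, and it ended the calls of Cyp26b1 and Ptgis at 4M and of Cyp26c1 with age. Cyp26b1 and Ptgis at 4M and Cyp26c1 were also lost with DESeq2's Wald test. The reversed values were not called in the main analysis. With the block Cyp2e1 at 2M was -0.115 in place of 0.21, and Cyp2u1 with age in NOD.H-2b 0.05 in place of -0.06. Leaving out 1 mouse, Cyp2e1 at 2M ranged from -0.297 to 0.746, Cyp2j6 at 2M from -0.01 to 0.112 and Cyp2u1 from -0.411 to 0.328. The cause was not tested. Depth limits the members with at most 3 counts. No fold was fitted for Cyp2r1 at 2M, where it was below the filter on low counts. It had 0, 2 and 0 counts in BALB/c and 14, 10 and 10 in NOD.H-2b at that age.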
